A study of Rattus norvegicus with 4 samples.

Results

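Chemokine receptors are G protein-coupled receptors on the surface of leukocytes. A cell that carries one moves up a gradient of the matching chemokine, a small secreted protein. CC receptors bind the Ccl ligands, CXC receptors bind the Cxcl ligands, and Cx3cr1 binds fractalkine (Cx3cl1), which is made as a membrane-bound protein. In the lung, monocytes, macrophages, neutrophils and lymphocytes carry different sets of these receptors. The receptors examined were Ccr1, Ccr2, Ccr3, Ccr7, Cxcr2, Cxcr3, Cxcr4 and Cx3cr1, chosen by name. Every non-control probe that the array annotates with one of these names was taken. This gave 8 genes with 11 probes, of 18856 named genes and 45598 probes on the array. No probe carried an older rat alias of a member, and no further probe listed a member's transcript.

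The cells were NR8383, a macrophage line established by lavage of the lung of a normal rat, which grows partly attached and partly floating. The series holds 1 group, Control_sub: cells after 20 passages, cultured submerged, with 15% serum and 2 mM glutamine in the medium, with no other agent or genotype named. It has 4 samples, which the design text calls biological replicates. The labels do not say whether these were separate cultures, so p-values measure only the spread between these samples. Incubation is put at 4 h by the design text, while the protocol has cells seeded for 48 h, and which time applies to the RNA was not settled here. The question this design allows is which receptors these cells expressed and how far the replicates differed.

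Each sample was hybridised to a one-colour array that reports fluorescence, so a value is a processed signal in fluorescence units. A level is the log2 of that signal minus the log2 of the array's 75th percentile, which was 1317, 1489, 1179 and 958 units on replicates 1 to 4. Different probes hybridise with different efficiency, so levels are compared between arrays for 1 probe and never between genes. A probe counts as detected on an array where the scanner software marked it well above background. The dimmest signals so marked were 16.7, 18.4, 19.1 and 20.3 units. Every receptor probe had 1 spot per array, and none of these spots was saturated or flagged as an outlier. Macrophage markers were present: 8 of 10 (80.0%) were detected on all 4 arrays, beside 54.9% of all named genes. Among them were Cd68, Csf1r (through 1 of its 2 probes), Spi1 and Pparg, while Adgre1 was detected on 1 array and Cd163 on none.

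Of the 8 receptors, Ccr1 and Cx3cr1 were detected on all 4 arrays. Cxcr4 was detected on 2 arrays, and Ccr2, Ccr3, Ccr7, Cxcr2 and Cxcr3 on none. The share of 2 in 8 (25.0%) stood beside 54.9% of all named genes detected on all 4 arrays, and 2 of the 11 receptor probes stood beside 42.5% of all probes. With a more lenient flag of the software, positive and significant against background, Cxcr2 and Cxcr4 joined Ccr1 and Cx3cr1. That made 4 of 8 (50.0%), beside 65.5% of all named genes. RNA was pooled over all cells of a culture, so few cells with much of a transcript and many cells with little cannot be told apart.

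**Figure D1:**
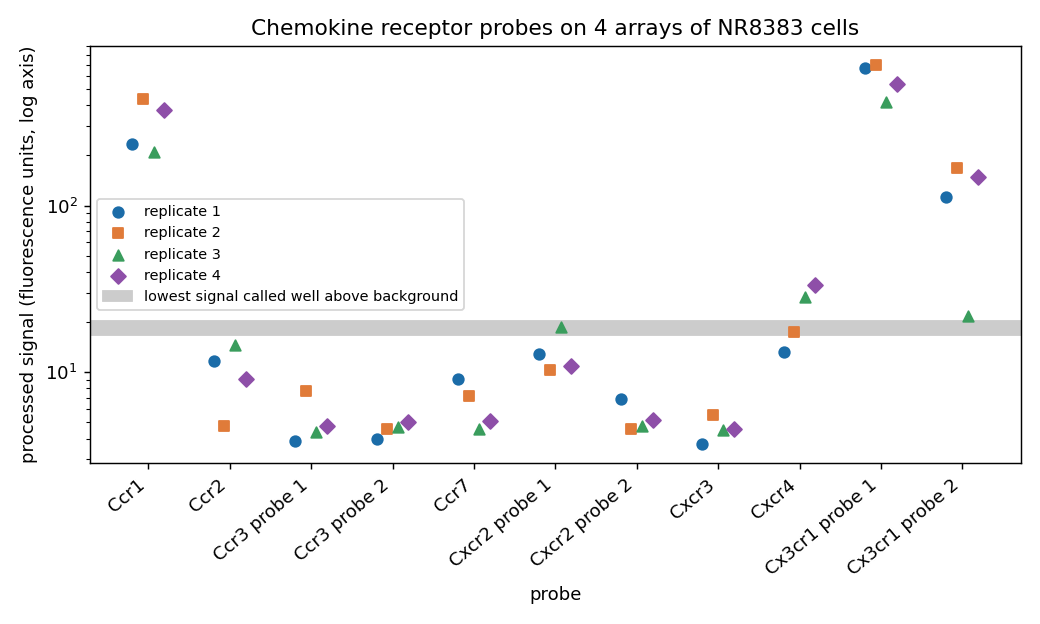
Processed signal (fluorescence units, log axis) of the 11 receptor probes, with 1 symbol per replicate; the grey band spans the dimmest signals marked well above background on the 4 arrays, 16.7 to 20.3 units. Ccr1 and Cx3cr1 probe 1 lie above the band on every array, Cx3cr1 probe 2 drops to 21.8 units on replicate 3, and the probes of Ccr2, Ccr3, Ccr7, Cxcr3 and Cxcr2 lie below or within it.

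The probe sequences that decide the presence or absence of a receptor here are printed as the array files give them, 5′ to 3′, because a call rests on what each probe can bind. All 4 probes below are the only probe of their gene.

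Ccr1: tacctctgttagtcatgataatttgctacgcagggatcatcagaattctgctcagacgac
Cxcr4: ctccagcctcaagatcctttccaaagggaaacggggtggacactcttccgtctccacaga
Ccr2: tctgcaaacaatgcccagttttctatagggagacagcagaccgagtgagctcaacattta
Cxcr3: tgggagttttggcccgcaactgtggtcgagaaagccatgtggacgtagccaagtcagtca

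Cx3cr1 had a pair of probes, and the last 30 bases of each are shown because they differ in kind. Capitals mark a run of CA repeats.

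Cx3cr1 probe 1: aacagattCACACACACACACACACACACA
Cx3cr1 probe 2: actctgggtttccctccagcttttagcaaa

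Ccr1 is the receptor through which monocytes and macrophages respond to Ccl3 and Ccl5, and in rodents also to Ccl6 and Ccl9. Its probe of 60 bases lies at chr8:128694469-128694528 (rn4), minus strand. The signals on replicates 1 to 4 were 233, 433, 209 and 373 units. Replicates 2 and 4 were high and replicates 1 and 3 low, and all lay well above background. As levels these were -2.50, -1.78, -2.49 and -1.36, with a mean of -2.03 ± 0.56 (SD, n = 4) and a 2.20-fold range. As a measure of spotting noise alone, the SD between spots of 1 array had a median of 0.083 and a 95th percentile of 0.219 among 26 probes of like level that are spotted 10 times on each array. Against detected probes of like signal, whose variance corresponds to an SD of 0.14, limma's variance test gave Ccr1 an adjusted p of 0.174.

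That test compares each detected probe's variance between replicates with that of probes of like brightness. It called 33 of 19400 detected probes (0.17%) at an adjusted p of 0.05. It called 0 of the 2 receptor probes detected on all arrays. Both had an unadjusted p under 0.05, 0.00197 for Ccr1 and 0.031 for Cx3cr1 probe 1 (limma). Of the 19400 detected probes, 1261 had an unadjusted p under 0.05 (limma). With normexp background correction the adjusted p for Ccr1 was 0.0142, and over all alternatives it ran from 4.57e-06 with no filter on dim probes to 0.921 with a prior that ignores signal (limma).

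Several ligands of Ccr1 were detected in the same cells. Ccl3 (macrophage inflammatory protein-1 alpha) had a level of 4.08 ± 0.16, Ccl6 of 3.79 ± 0.16 and Ccl9 of 2.44 ± 0.32 (SD, n = 4). Ccl5 had a level of -4.47 ± 0.48, from -5.11 on replicate 1 to -4.00 on replicate 4. Ccl4, a related macrophage chemokine, had a level of -0.26 ± 0.08. All 5 were detected on all 4 arrays, so transcripts of this receptor and of 4 of its ligands were measured together.

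Cx3cr1, which marks patrolling monocytes and many resident macrophages such as microglia, was detected through 1 of its 2 probes. Probe 1, at chr8:125033728-125033787 (rn4, minus strand), gave 665, 698, 419 and 534 units. Replicate 3 was the lowest. The levels were -0.99, -1.09, -1.49 and -0.84, with a mean of -1.10 ± 0.28 (SD, n = 4), a 1.57-fold range and an adjusted p of 0.66 in limma's variance test.

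This probe ends in 11 consecutive CA units. It shared a run of at least 16 bases with 29 probes not assigned to Cx3cr1, counted with or without a gene name. Of those, 28 were detected on all 4 arrays. The other 10 receptor probes shared such a run with 0 probes of other genes. All 28 probes on the array with 8 or more CA units in a row were detected on all 4 arrays, and so were all 27 left when the Cx3cr1 probe was set aside. The share was 93.9% at 7 or more units, 62.2% at 5 or more and 49.7% at 4 or more, beside 42.5% of all probes. How much of the signal of probe 1 came from Cx3cr1 transcript was not tested.

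**Figure D2:**
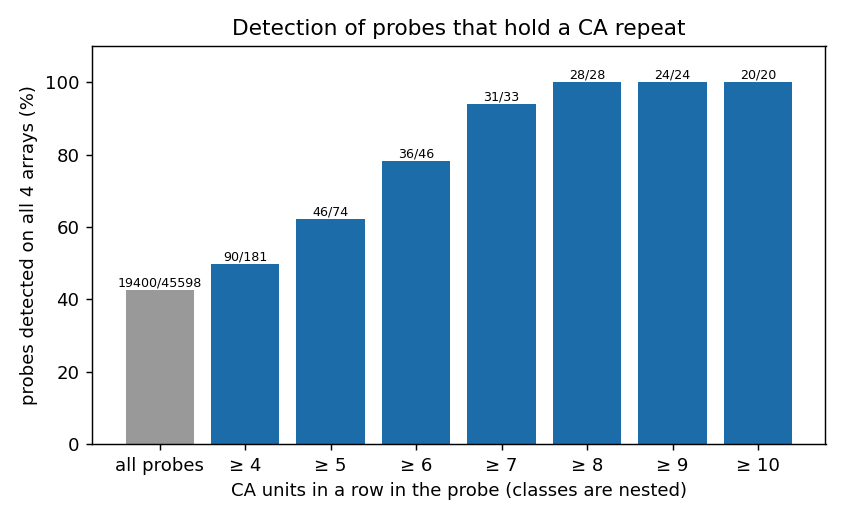
Percent of probes detected on all 4 arrays (bars, starting at 0), for all probes and for nested classes of probes with at least 4 to at least 10 consecutive CA units, with detected over total printed above each bar. The share rises from 42.5% of all probes to 28 of 28 at 8 or more units, the class that holds Cx3cr1 probe 1.

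Probe 2 of Cx3cr1 holds no such repeat and lies at chr8:125031563-125031622 (rn4, minus strand), farther along the transcript. It gave 113, 167, 21.8 and 148 units. It was detected on replicates 1, 2 and 4 but not on replicate 3, which lay far below the others. The dimmest signal marked well above background on replicate 3 was 19.1 units, so that call is close to its limit. With the more lenient flag, positive and significant, probe 2 passed on all 4 arrays. As levels these were -3.54, -3.15, -5.76 and -2.69, a mean of -3.79 ± 1.36 (SD, n = 4) and an 8.37-fold range. Both Cx3cr1 probes were lowest on replicate 3. Without replicate 3, probe 2 was detected on every array left and its SD fell to 0.43. Both follow from leaving out its lowest array. The adjusted p was then 0.775 in limma's variance test, which called 0 of 19873 probes there, so this value shows little about probe 2. With all 4 arrays probe 2 was outside the test, because it was not detected on all. With no filter on dim probes its adjusted p was 9.91e-19 (limma), in a setting that called 1122 of 45598 probes (2.46%). With the repeat-bearing probes left out, the receptors detected on all 4 arrays fell from 2 to 1, which was Ccr1. Cx3cl1, the ligand of Cx3cr1, was detected on 0 arrays, with a level of -5.98 ± 0.20 (SD, n = 4). Its signals of 19.5, 21.0, 21.5 and 18.0 units lay near the dimmest ones marked well above background. The call on Cx3cl1 is therefore close to its limit.

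**Figure D3:**
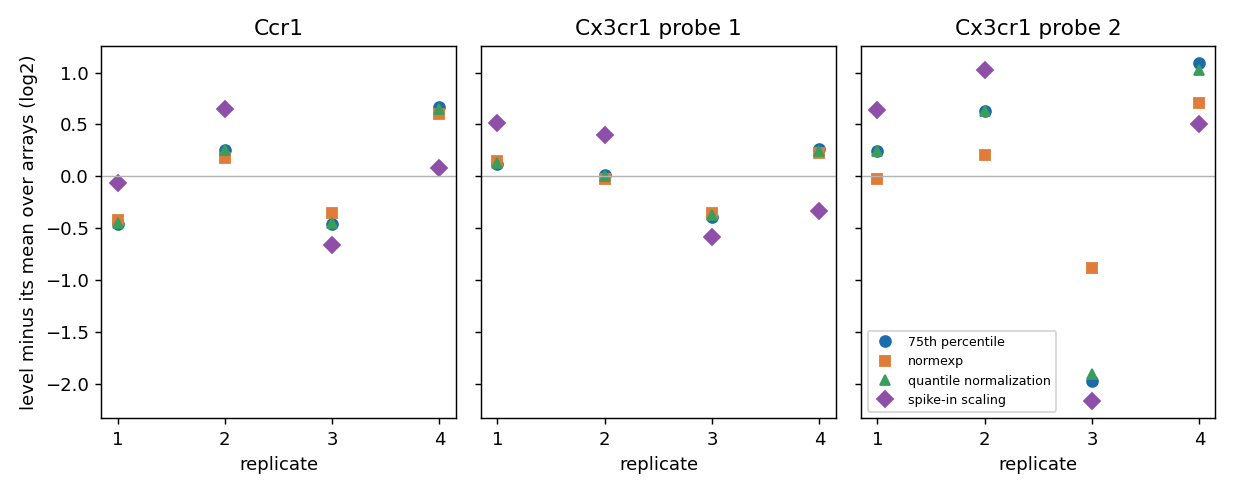
Level of Ccr1 and of both Cx3cr1 probes on each replicate (x axis), as the difference in log2 units from that probe's mean over the 4 arrays, under 4 ways of scaling (symbols). Ccr1 was high on replicates 2 and 4 with the 75th percentile, normexp and quantile normalization, while spike-in scaling put replicate 4 close to replicate 1; Cx3cr1 probe 2 was lowest on replicate 3 under all 4.

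The difference between replicates depended on what the arrays were scaled to. The mean of 8 bright spike-in probes, which measure RNA added in known amount, exceeded the 75th percentile by 1.86, 1.87, 2.46 and 2.85 (log2) on the respective arrays. Scaled to the spike-ins, Ccr1 had levels of -4.36, -3.65, -4.95 and -4.21. Replicate 2 was then the highest and replicate 3 the lowest, in place of replicates 4 and 1. Cx3cr1 probe 1 had -2.85, -2.96, -3.95 and -3.69, so replicates 1 and 2 lay above replicates 3 and 4.

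Cxcr4, the receptor of Cxcl12, holds leukocytes in the bone marrow and is widely expressed in blood cells. Its probe lies at chr13:41308900-41308959 (rn4, minus strand). It gave 13.2, 17.5, 28.4 and 33.5 units, and it was detected on replicates 3 and 4 alone. The levels were -6.64, -6.41, -5.38 and -4.84, a mean of -5.82 ± 0.85 (SD, n = 4) and a 3.48-fold range. These signals straddle the dimmest ones marked well above background, so the call on each array is close to its limit. The range was 1.84-fold with normexp correction and 1.75-fold with spike-in scaling. Cxcl12 was detected by none of its 3 probes.

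Ccr2 draws monocytes out of the blood towards Ccl2. Its probe (chr8:128893805-128893864, rn4, plus strand) gave 11.6, 4.77, 14.6 and 9.04 units and was detected on 0 arrays. The value of replicate 2 was a substitute that the scanner software writes for a spot not distinguishable from background. On the 3 other arrays the spot was positive and significant without being well above background, so a low level of transcript is not settled by this probe. Ccl2 itself was detected on all 4 arrays with a level of 1.18 ± 0.27 (SD, n = 4), highest on replicate 2 at 1.55. Ccl7 and Ccl12, further Ccr2 ligands, were detected on 0 arrays.

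Ccr3 is the eotaxin receptor of eosinophils. Its probe 1 (chr8:128769167-128769226, rn4) gave 3.88 to 7.70 units, with a substitute value on 3 arrays. Probe 2 (chr8:128771168-128771227, rn4) gave 3.99 to 5.00 units, with a substitute value on all 4. Neither was detected on any array. Of the eotaxins, which bind Ccr3, Ccl24 was detected on 1 array, replicate 3, and Ccl11 and Ccl26 on none. Of 4 eosinophil markers 0 were detected on all arrays and 3 on 1 to 3 arrays, while 2 were positive and significant on all 4. Ccl5, which also binds Ccr3, was detected on all 4 arrays.

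Ccr7 guides dendritic cells and T cells into lymph nodes. Its probe (chr10:87925806-87925865, rn4, minus strand) gave 9.13, 7.23, 4.58 and 5.09 units and was detected on 0 arrays. All 4 values lay below the dimmest signals marked well above background. The value of replicate 3 was a substitute, and on 3 arrays the spot was positive and significant. As for Ccr2, a low level of transcript is not settled by this probe. Both of its ligands, Ccl19 and Ccl21, were also detected on 0 arrays.

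Cxcr2 is the main receptor by which neutrophils follow Cxcl1, Cxcl2 and related chemokines. Its probe 1 (chr9:73477254-73477313, rn4) gave 12.8, 10.2, 18.6 and 10.8 units, and its probe 2 (chr9:73478208-73478267, rn4) gave 4.57 to 6.90. Neither was well above background on any array, whereas probe 1 was positive and significant on all 4. Among the ligands, Cxcl2 had a level of -2.45 ± 0.38 and Cxcl3 of -4.80 ± 0.61 (SD, n = 4), both detected on all 4 arrays. Cxcl1, Cxcl6 and Ppbp were detected on 0 arrays.

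Cxcr3 directs activated T cells and NK cells to interferon-induced chemokines. Its probe (chrX:89794887-89794946, rn4, minus strand) gave 3.70, 5.53, 4.50 and 4.59 units, 3 of them substitute values, and was detected on 0 arrays. Of its ligands, Cxcl10 had a level of 0.99 ± 0.44 and Cxcl9 of -5.56 ± 0.33 (SD, n = 4), both detected on all 4 arrays. Cxcl10 was higher on replicates 1 and 3, at 1.27 and 1.46, than on replicates 2 and 4, at 0.65 and 0.58. Ccr1 had the opposite order, with replicates 2 and 4 above replicates 1 and 3, and a relation between the genes was not tested. Cxcl11 was detected on 0 arrays.

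Over the whole ligand list, 10 of 24 genes on the array (41.7%) were detected on all 4 arrays, beside the 54.9% of all named genes. With the positive and significant flag the count was 15 of 24 (62.5%), near the 65.5% of all named genes. Pf4 was detected on 3 arrays and Ccl24 on 1. Set by receptor, detected ligands stood beside a detected receptor for Ccr1, and beside receptors not detected on any array for Ccr2 (Ccl2), Ccr3 (Ccl5), Cxcr2 (Cxcl2 and Cxcl3) and Cxcr3 (Cxcl9 and Cxcl10). For Ccr7, Cxcr4 and Cx3cr1, no listed ligand was detected on all arrays.

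The signalling list holds G protein subunits, kinases, arrestins, effectors and regulators that act downstream of chemokine receptors, and 2 other chemoattractant receptors, C5ar1 and Fpr1. Of these 28 genes, 25 (89.3%) were detected on all 4 arrays, beside 54.9% of all named genes. The inhibitory G protein subunits Gnai2 and Gnai3 had levels of 5.48 ± 0.05 and 1.56 ± 0.01, and the beta subunits Gnb1 and Gnb2 of 3.16 ± 0.08 and 6.05 ± 0.03 (SD, n = 4). Gng5, a gamma subunit, had 3.16 ± 0.08. The receptor kinases that end signalling were also detected, with Grk2 at 0.47 ± 0.07, Grk3 at -0.15 ± 0.16 and Grk5 at -3.23 ± 0.08. Gng2, Rgs16 and the formyl peptide receptor Fpr1 were detected on 0 arrays.

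**Figure D4:**
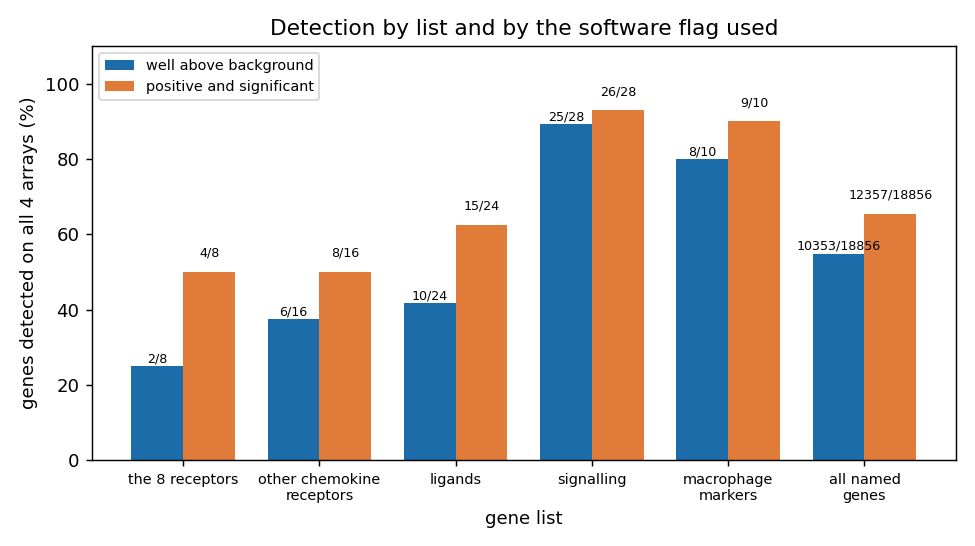
Percent of genes detected on all 4 arrays (bars, starting at 0) for each gene list, by the well above background flag and by the positive and significant flag, with detected over total above each bar. The 8 receptors had 25.0% and 50.0%, and the signalling genes 89.3% and 92.9%, beside 54.9% and 65.5% of all named genes.

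Other chemokine receptors on the array showed how a call can turn on 1 probe. Of 16 such genes, 6 (37.5%) were detected on all 4 arrays, among them Ccr9, Cxcr1, Cxcr5, Ackr4 and Ccrl2. With probes that list transcripts of more than 1 gene left out, the count was 5, so a call among the 6 rested on such a probe. Cxcr1, a close relative of Cxcr2 that lies 32.3 kb from it, had 1 probe and a level of 1.10 ± 0.11 (SD, n = 4). Ccrl2, which presents chemerin without signalling, had -3.01 ± 0.17, and the scavenging receptor Ackr4 had -5.31 ± 0.21. Ccr9 and Cxcr5 were each detected through 1 of 2 probes, with levels of -1.77 ± 0.22 and -4.09 ± 0.25. Their other probes were detected on 0 arrays.

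Among genes with several probes, some but not all probes were detected for 1 of 3 receptors under study, 3 of 8 other receptors and 24.5% of 5909 named genes.

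**Figure D5:**
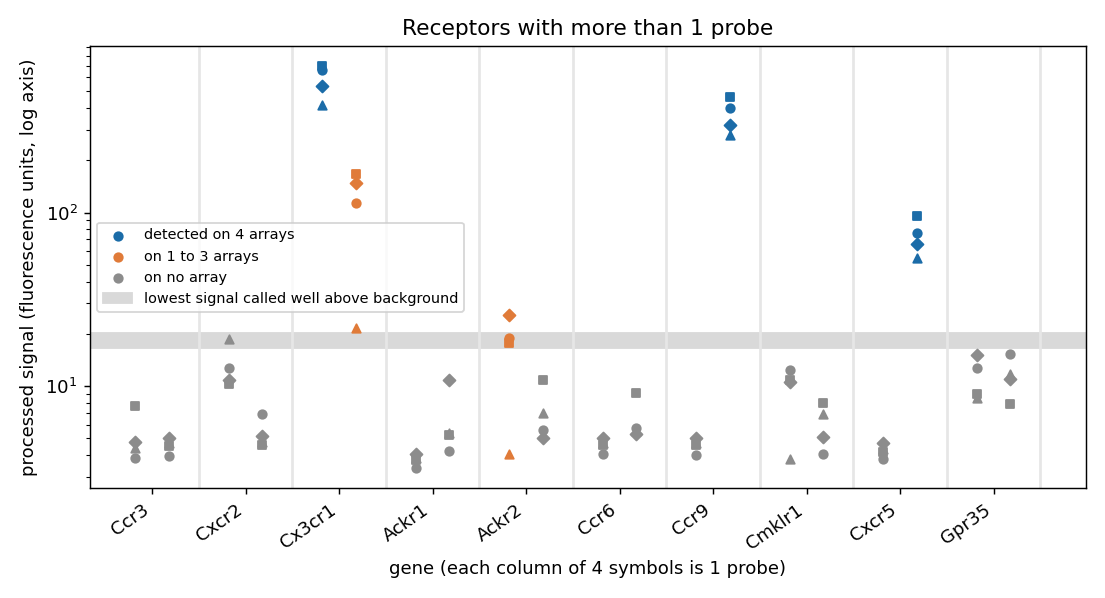
Processed signal (fluorescence units, log axis) of chemokine receptors with more than 1 probe (1 gene is left out); each column is 1 probe, each symbol 1 array (circle, square, triangle and diamond for replicates 1 to 4), colour gives the number of arrays with detection, and the grey band is the range of the dimmest signals marked well above background. In Cx3cr1, Ccr9 and Cxcr5, 1 probe was detected on all 4 arrays while the other of the same gene was not.

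Several of these genes are neighbours. Ccr1 and Ccr3 probes lie 74.6 kb apart on chromosome 8 (rn4), with Ccr1l1, a Ccr1-like receptor gene, 33.9 kb from Ccr1. Ccr1 was detected on all 4 arrays, Ccr1l1 on 3 and Ccr3 on none. Xcr1, 81.6 kb from Ccr1, was detected on 0 arrays. Next to Cxcr2, both Cxcr1 and Rufy4 (12.8 kb away) were detected on all 4 arrays, and Ogt, 29.1 kb from Cxcr3, was as well. Around Cx3cr1, Csrnp1, Rpsa and Slc25a38 were detected while Mobp and Xirp1 were not, and near Ccr7 neither Igfbp4 nor Tns4 was. Within 100 kb of a member, 8 of 14 other named genes (57.1%) were detected on all 4 arrays, beside the 54.9% of all named genes.

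Markers of other leukocytes, which carry several of these receptors, were given the same count, to be read beside the 54.9% of all named genes. On all 4 arrays, 3 of 8 T cell markers (37.5%; Cd3d, Cd4 and Lck) and 3 of 6 B cell markers (50.0%; Cd79a, Pax5 and Cd22) were detected. So were 2 of 5 NK cell markers (Gzmb and Nkg7) and 2 of 6 neutrophil markers (33.3%; Mpo and Camp). Of the dendritic cell markers 4 of 5 were detected (80.0%; Zbtb46, Clec9a, Batf3 and Ccl22), and of 4 eosinophil and 4 mast cell markers 0 and 0. Of the Cd3 genes of T cells, Cd3d was detected on all 4 arrays and Cd3e and Cd3g on 0. The B cell gene Ms4a1 was detected on 0 arrays, while Cd79a and Pax5 were detected on all 4. Cd4, Gzmb, Camp, Zbtb46 and Clec9a were detected through 1 of 2 probes and Cd22 through 1 of 3.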

How the data were processed

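Cy3-labelled RNA (100 ng, integrity minimum 7.5) was run on Agilent rat arrays in a single colour, per the labels' protocols. Agilent Feature Extraction 11.0.1.1 read them, per the submitters' processing notes. The deposited values are intensity per spot on a linear scale, with background subtracted by the software and no scaling across arrays, per the file headers. All 4 arrays lay on 1 slide scanned together, so no batch could be tested.

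Non-uniform and population outlier spots were dropped and the remaining spots of each probe averaged. Detection of a probe required over 0.5 of these spots well above background. Detection of a gene required 1 probe or more detected on all 4 arrays, and the brightest such probe gave its level (failing that, the brightest of all). The variance test used limma 3.58.1 under R 4.3.3 (robust prior with signal trend, F test, Benjamini-Hochberg over all detected probes at 0.05) and was first tested on simulated data. Tables were made in Python 3.11.15 with pandas 2.3.3 and numpy 2.4.6, and plots with matplotlib 3.10.9. Precision is limited by there being 4 arrays.

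Probes were named through a RefSeq gene table of GRCr8: accessions named 23856, current symbols 5131 and older symbols 351. The other 16260 stayed unnamed and are not in the counts of named genes. Positions come from the files (rn4). Exon and UTR annotation was not used here. Some genes that the lists hold are counted but not reported here by name. Ccr8 was not matched, and Cxcl5 resolved to Cxcl6.

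The members and the lists (other receptors, ligands, signalling genes, markers of 8 cell types) were chosen with earlier results of these data known. The rule for named genes took every receptor under study, the first 8 detected genes of each list in list order, the genes detected on no array where they were 8 or fewer, and the neighbours. Genes named beyond it (Adgre1, Cxcl9, Cxcl10, Ccl24, Pf4, Rgs1, Rac2, C5ar1 and the ligands not detected on any array) were chosen after their values were seen. Alternatives were the lenient flag, 2 arrays, each probe of a gene required, no spots dropped, normexp (offset 50), quantile normalization, the median as scale, no filter on dim probes, other priors and each array left out. Spike-in scaling and the removal of probes with repeats or several genes were added after seeing the data.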

Additional observations from a re-analysis of the deposited data

How the results depend on the processing

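Of the 8 receptors, the count detected on all arrays was 4 with the positive and significant flag, 1 when each of a gene's probes had to be detected and 1 with probes of at least 8 CA units left out. The count of receptor probes was 5 with that flag, 4 when detection on 2 arrays sufficed, and 1 without the repeat probes. Other receptors detected fell to 3 when each of a gene's probes was required, and to 5 with probes that list more than 1 gene left out. Receptors past the variance test were 1 with normexp and 2 with no filter on dim probes. Those settings called 270 of 19400 probes (1.39%) and 1122 of 45598 (2.46%), beside 33 of 19400 (0.17%) in the main one. With a replicate left out, the receptors ranged from 2 to 2, receptor probes from 2 to 3, other receptors from 6 to 6, ligands from 10 to 11, signalling genes from 25 to 25, receptors past the variance test from 0 to 0 and all named genes from 10361 to 10571. Without replicate 3 the variance test called 0 of 19873 probes at an adjusted p of 0.05 and 1123 at an unadjusted one (limma). The median as scale and spike-in scaling set another zero point and so shift every probe's mean level by the same amount. With normexp the levels of 8 of 11 probes moved by more than their SD, for which the cause was not tested. With quantile normalization, flagged spots kept or a replicate left out, all 11 stayed within it. Signal near background limits the calls on Cxcr4, Ccr2, Ccr7, Cxcr2 and the ligand Cx3cl1, and that on Cx3cr1 probe 2 at replicate 3. No paired analysis was possible because a single group, Control_sub, was measured.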

Other observations

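Rgs1, which ends signalling by G protein-coupled receptors in leukocytes, had levels of -4.50, -3.64, -4.56 and -3.50 on replicates 1 to 4. Like Ccr1, it was higher on replicates 2 and 4 than on replicates 1 and 3. Itgam, the integrin alpha chain of macrophages and neutrophils, had -1.42, -0.56, -1.59 and -0.03, and Rac2, a GTPase of leukocyte movement, had 1.53, 1.98, 1.23 and 2.04. Both were also higher on replicates 2 and 4. The complement receptor C5ar1, which steers the same cells, had 0.52, 0.91, 0.36 and 0.80. These genes were chosen after their values were seen, so the shared order is no support for a link between them. Their likeness over 4 arrays was not tested, and their levels are relative to the 75th percentile of each array. Scaled to the spike-ins, Ccr1 itself had another order, -4.36, -3.65, -4.95 and -4.21. Of 43 receptor, ligand and signalling genes detected on all arrays, each examined through the probe that gave its level, 0 had a replicate standing apart from the rest by Dixon's criterion.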
